A study of Mus musculus with 9 samples.

Results

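The genes of the major histocompatibility complex (MHC) and of antigen processing were described in the RNA of shaved mouse skin. Members were the rows of the deposited gene tables whose name begins with H2-, the prefix of the mouse MHC, together with Cd74, Ciita, B2m, Tap1, Tap2, Tapbp, Nlrc5, Psmb8 and Psmb9. This gave 54 of 49585 genes, 45 with an H2- name and 9 others, of which 50 lie on chromosome 17. The study compared 3 kinds of mice with 3 libraries each: mice labelled IL-6 -/- KO, whose strain label is C57BL/6, then BALB/c mice, and C57BL/6 mice with no stated mutation as the strain and genotype control. All were described as obtained at 4 to 5 weeks of age and acclimated for 2 weeks, 6 weeks old at the start, shaved on day 0, untreated for 7 days and killed for skin on day 8. The protocol lists 6 IL-6KO, 3 Balb/c and 3 C57 mice and does not tie a library to a mouse, so a p-value measures the spread between these libraries, which may be technical. How the Il6 allele was made is not given in the labels. Levels within a gene are given as CPM, total exon reads scaled to a common library size by the trimmed mean of M values (TMM), and levels between genes as RPKM, which also divides by exon length. Differences are log2 fold changes ± SE, and a gene is said to be called, or to have risen or fallen, only at an adjusted p under 0.05.

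MHC class I molecules carry peptides cut by the proteasome in the cytosol. They are made of a heavy chain and beta-2 microglobulin, are loaded in the endoplasmic reticulum with the help of the TAP transporter and tapasin, and are shown by nearly all nucleated cells to CD8 T cells. Class II molecules pair an alpha with a beta chain, travel with the invariant chain Cd74 to endosomes, exchange its remnant for peptides with the help of H2-DM, and are shown mainly by dendritic cells, macrophages and B cells to CD4 T cells. In skin the epidermal Langerhans cells are known for high class II levels. C57BL/6 and BALB/c mice are known to carry different MHC haplotypes, H2-b and H2-d, and the reference genome used for counting is that of C57BL/6J, so reads from BALB/c alleles had to match the other haplotype to be counted.

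The libraries labelled IL-6 KO held from 3843953 to 4476346 total exon reads, those of BALB/c from 6115739 to 6242332, and those of C57BL/6 from 6083876 to 6882193. Il6, the gene named in the label (chromosome 5, 30013114 to 30019981, GRCm38), had 6, 24 and 1 reads in the libraries labelled IL-6 KO, against 0, 2 and 0 in BALB/c and 2, 1 and 0 in C57BL/6. These reads do not bear out the label, but they cannot decide against it, since how the Il6 allele was made is not given. The libraries are therefore called the KO-labelled libraries, and their group is taken from the label alone. Replicate 2 of the KO-labelled libraries stood apart from the others, with chi-square per degree of freedom of 47.2 and 32.1 against replicates 1 and 3, which gave 6.57 between themselves. Xist had 3, 130 and 2 reads in BALB/c, against 0, 2 and 5 in the KO-labelled libraries and 0, 0 and 0 in C57BL/6. BALB/c replicate 2 thus differed from all others in this gene, and what this means for its other genes was not tested. Keratinocyte markers summed to between 6497 and 20437 CPM in every library, which fits the labelled tissue, and skeletal muscle markers summed to between 4300 and 5312 CPM in the KO-labelled libraries, against 16249 to 34454 CPM in BALB/c and 31767 to 61569 CPM in C57BL/6. In bulk skin, fewer cells of a type and less RNA per cell cannot be told apart.

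The class I heavy chain genes are near copies of one another, so where a read can be placed sets what their counts mean. The next stretches are the first 90 bases of exon 3, which encodes the peptide-binding alpha-2 domain, in GENCODE vM21 on GRCm38. They are shown for the genes on which the class I results turn, and capitals mark bases that differ from H2-K1.
H2-K1: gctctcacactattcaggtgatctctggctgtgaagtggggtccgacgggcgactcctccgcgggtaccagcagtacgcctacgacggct
H2-D1: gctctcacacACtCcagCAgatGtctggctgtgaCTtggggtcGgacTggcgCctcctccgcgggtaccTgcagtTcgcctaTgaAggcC
H2-Q4: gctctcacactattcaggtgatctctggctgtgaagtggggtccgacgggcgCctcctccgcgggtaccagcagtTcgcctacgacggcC
H2-Q6: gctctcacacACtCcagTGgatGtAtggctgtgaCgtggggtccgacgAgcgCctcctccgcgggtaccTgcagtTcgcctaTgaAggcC
H2-Q7: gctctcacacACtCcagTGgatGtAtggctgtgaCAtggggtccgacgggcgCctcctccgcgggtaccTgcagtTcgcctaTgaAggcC
H2-Q1: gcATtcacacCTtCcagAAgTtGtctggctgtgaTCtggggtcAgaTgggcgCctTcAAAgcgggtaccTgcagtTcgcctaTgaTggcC
H2-Q2: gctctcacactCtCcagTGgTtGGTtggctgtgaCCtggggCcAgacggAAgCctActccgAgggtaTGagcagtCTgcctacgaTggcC
H2-T23: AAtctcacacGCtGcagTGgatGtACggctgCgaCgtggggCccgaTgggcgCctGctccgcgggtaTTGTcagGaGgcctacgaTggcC
Over the 276 bases of this exon H2-Q4 differed from H2-K1 at 24, H2-D1 at 33, H2-Q7 at 37, H2-Q6 at 38, H2-Q2 at 58, H2-Q1 at 59 and H2-T23 at 81. H2-Q6 and H2-Q7 were the closest pair shown here by exon 4, the alpha-3 domain, with 2 differing bases in 276, while they differed at 14 bases of exon 3.

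The share of reads placed at a single gene differed between members. For H2-K1 they were 100% in the KO-labelled libraries, 99.3% in BALB/c and 100% in C57BL/6, and for H2-D1 98.8%, 97.7% and 98.5% in the same order. H2-Q7 reached 75.2%, 71% and 73.5%, H2-T23 64.1%, 61.2% and 59.6%, H2-T10 41.8%, 43.5% and 39.6%, and H2-T24 21.4%, 38.5% and 16.5%. The counts of these Q and T genes are therefore uncertain, since part of their reads also match another place. Every read was unique in 17 of the 43 members that had reads, among them H2-Aa, H2-Ab1, H2-Eb1, H2-Ea-ps, Cd74 and Nlrc5. B2m had 54.9%, 64% and 56.7% unique reads, and Ciita 21.9%, 23.4% and 22.9%. Ciita overlaps Dexi, a gene on the other strand with 1558 reads over all libraries beside 401 for Ciita, and the sources used here do not say whether strand was used in counting.

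**Figure D1:**
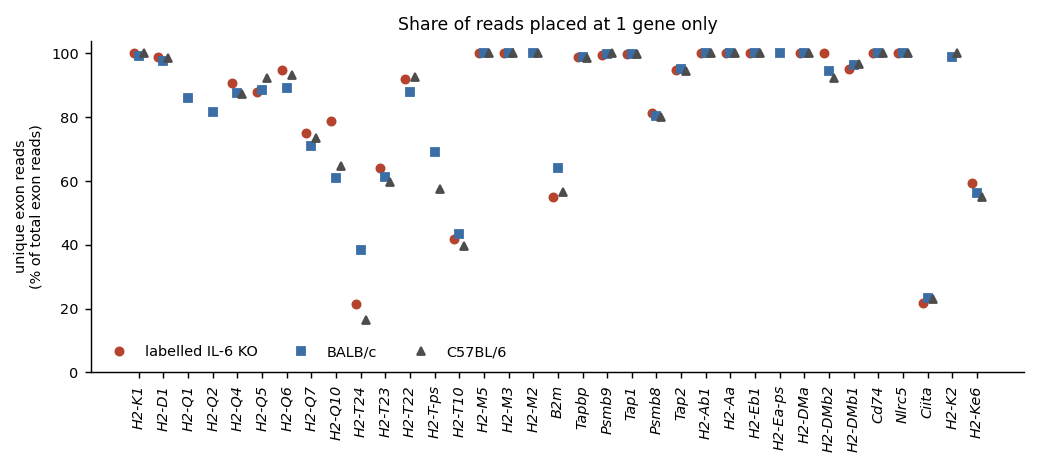
Unique exon reads as a percent of total exon reads (y axis) for the tested genes with at least 200 reads over all libraries (x axis, by role), 1 point per group summed over its 3 libraries and drawn only where the group has at least 20 reads. Classical class I and class II genes lie near 100%, whereas H2-T10, H2-T24 and Ciita lie under 50% in each group drawn.

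Of the 54 genes, 36 passed the filter on low counts. Another 11 had no read in any library, namely H2-Pa, H2-Pb, H2-Q3, H2-M1, H2-M10.1 to H2-M10.6 and H2-M10.5-ps1. The remaining 7 had few reads over all libraries: H2-Oa 35, H2-M9 27, H2-M6-ps 19, H2-Bl 13, H2-Eb2 6, H2-M11 6 and H2-T3 4. The 13 reads of H2-Bl, a class I gene annotated as a polymorphic pseudogene, were 4, 5 and 4 in BALB/c, and none came from the other groups.

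The comparison of BALB/c with C57BL/6 asks how the strains differ in untreated skin. Among the 36 tested members 7 were higher in BALB/c and 0 lower at an adjusted p under 0.05 (edgeR's quasi-likelihood test, adjusted by Benjamini-Hochberg over 14415 genes), which is 19.4%, against 3.41% of all genes tested (1.63% higher and 1.78% lower). They were H2-K2, H2-Ea-ps, H2-Q1, H2-Q2, H2-Q5, H2-T24 and H2-T-ps. Whether counting BALB/c reads on the C57BL/6J reference shapes these calls, by loss or gain of reads, was not tested. The same holds where the KO-labelled libraries are set against BALB/c. The median log2 fold change was 0.42 over the members and -0.01 over all genes. Values did not overlap between the strains for 19 members that were higher in BALB/c, where 14.6% of all genes did the same, and for 2 that were lower, H2-K1 and H2-Q7, where the share of all genes was 15.6%. Of the calls over all genes 47.9% were higher in BALB/c, and 58.8% with scaling by library size alone, under which the members again had 7 higher and 0 lower.

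The KO-labelled libraries had lower levels for many members against both other groups, which this design compares with shared libraries, so the comparisons are not independent of one another. Against C57BL/6, 1 member was higher, H2-Q1, and 14 were lower, in all 41.7%, against 35.2% of all genes. Against BALB/c, 22 were lower and 0 higher, which is 61.1%, against 37.3% of all genes. Read by direction, 19.2% of all genes were higher and 16% lower against C57BL/6, and 19.9% higher and 17.4% lower against BALB/c. Values did not overlap for 1 member that was higher and 16 that were lower against C57BL/6, beside 24.6% and 23% of all genes, and for 0 and 24 against BALB/c, beside 26.7% and 24%. The median log2 fold change of the members was -0.78 against C57BL/6 and -1.10 against BALB/c, where all genes gave 0.01 in both. Without H2-Ea-ps and H2-Q2, which had at most 1 read in both groups, the median against C57BL/6 was -0.79 over 34 members. Scaling by library size alone moved the median of all genes to 0.15 against C57BL/6 and raised the share of calls that were higher to 67.8%, beside 54.6% with TMM. It left 8 members called against C57BL/6, of which 1 was higher and 7 lower, and 20 called against BALB/c, all lower. All genes gave 5149 calls against C57BL/6 under that scaling, 3493 higher and 1656 lower, and 5193 against BALB/c. The share of members called in either direction against C57BL/6 therefore no longer exceeded that of all genes. By direction, 7 of 36 members were lower under that scaling, beside 1656 of 14415 genes. Without replicate 2 of the KO-labelled libraries, 30 of 36 members were called against C57BL/6, 1 higher and 29 lower, where all genes gave 46.1%, split into 24.3% higher and 21.8% lower. Against BALB/c 34 were called in that fit, all lower, where all genes gave 47.8%, split into 25.2% higher and 22.5% lower. Over all fits that left out 1 library, members called ranged from 8 to 30 and from 15 to 34 in these comparisons. The fit without replicate 2 was singled out after its values had been seen, and it leaves 2 KO-labelled libraries. Replicate 2 was the highest of its group in 32 of 36 tested members, so leaving it out had to lower the group in those. Lower levels called in that fit, here and for the genes below, are therefore no independent support for a fall. In that fit 9 members were higher in BALB/c against C57BL/6, beside 3.34% of all genes, and 1, H2-Q7, was lower, beside 3.28%, with 6.62% of all genes called in either direction.

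**Figure D2:**
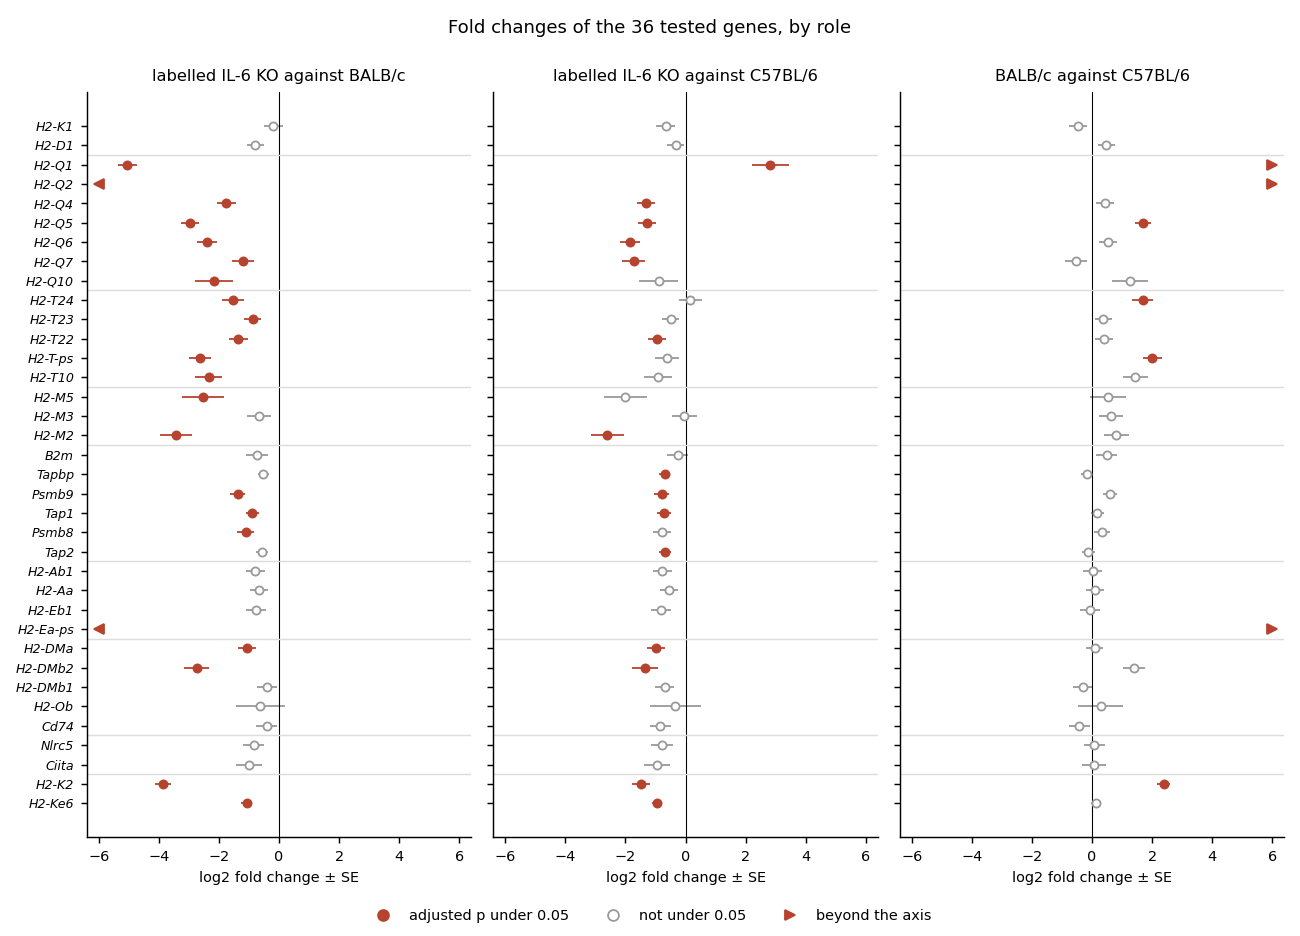
Log2 fold change ± SE (x axis) of the 36 tested genes, grouped by role down the page, in 3 comparisons, with filled red points for an adjusted p under 0.05 and open grey points for the others. Arrows lie beyond the axis, and H2-Ea-ps and H2-Q2 are not drawn in the middle panel because both groups had at most 1 read. The 22 red points of the left panel all lie below 0, and the 7 of the right panel all lie above 0.

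The classical class I genes, H2-K1 and H2-D1, present peptides to most CD8 T cells. H2-K1 (chromosome 17, 33996017 to 34000333, minus strand) had 389, 934 and 408 CPM in the KO-labelled libraries, 708, 612 and 650 CPM in BALB/c, and 877, 898 and 953 CPM in C57BL/6. H2-D1 (chromosome 17, 35262730 to 35267499, plus strand) had 477, 1016 and 492 CPM in the KO-labelled libraries, 1265, 1029 and 1145 CPM in BALB/c, and 853, 790 and 838 CPM in C57BL/6. The strains did not overlap in either gene and lay in opposite order, with H2-K1 lower and H2-D1 higher in BALB/c. Whether counting BALB/c reads on the C57BL/6J reference shapes this order, by loss or gain of reads, was not tested. Neither difference passed the test, at a log2 fold change of -0.47 ± 0.310 (adjusted p = 0.444) for H2-K1 and 0.47 ± 0.282 (adjusted p = 0.399) for H2-D1. Replicates 1 and 3 of the KO-labelled libraries lay below every other library in both genes, while replicate 2 lay among them. No call followed against C57BL/6 (adjusted p = 0.129 for H2-K1 and 0.400 for H2-D1) or against BALB/c (0.662 and 0.0525). In fits without 1 library, adjusted p reached 0.35 and 0.769 against C57BL/6, and 0.981 and 0.178 against BALB/c. Without replicate 2 both genes were lower against C57BL/6, at -1.19 ± 0.155 (adjusted p = 0.000483) for H2-K1 and -0.77 ± 0.165 (adjusted p = 0.00536) for H2-D1, and both were lower against BALB/c, at -0.72 ± 0.152 (adjusted p = 0.00498) and -1.24 ± 0.168 (adjusted p = 0.000546).

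Within a library the RPKM of H2-D1 divided by that of H2-K1 was 1.24, 1.1 and 1.22 in the KO-labelled libraries, 1.81, 1.7 and 1.78 in BALB/c, compared with 0.984, 0.89 and 0.889 in C57BL/6. The 3 groups did not overlap, and replicate 2 had the lowest ratio of the KO-labelled libraries, above all C57BL/6 libraries. B2m, the light chain shared by class I molecules, had the highest mean RPKM of the members in each group, at 606 ± 388 in the KO-labelled libraries, 921 ± 214 in BALB/c and 646 ± 59.4 in C57BL/6 (SD, n = 3 each). Its CPM was 334, 895 and 366 in the KO-labelled libraries, 803, 1134 and 724 in BALB/c, compared with 642, 650 and 617 in C57BL/6. Its tests gave log2 fold changes of 0.48 ± 0.357 for BALB/c against C57BL/6 (adjusted p = 0.499), -0.26 ± 0.357 for the KO-labelled libraries against C57BL/6 (adjusted p = 0.601), with -0.74 ± 0.358 against BALB/c (adjusted p = 0.131). Without replicate 2, B2m was lower in them, at -0.86 ± 0.212 against C57BL/6 (adjusted p = 0.0102) and at -1.34 ± 0.216 against BALB/c (adjusted p = 0.00134). Leaving out other libraries raised its adjusted p to as much as 0.984 against C57BL/6 and 0.35 against BALB/c.

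**Figure D3:**
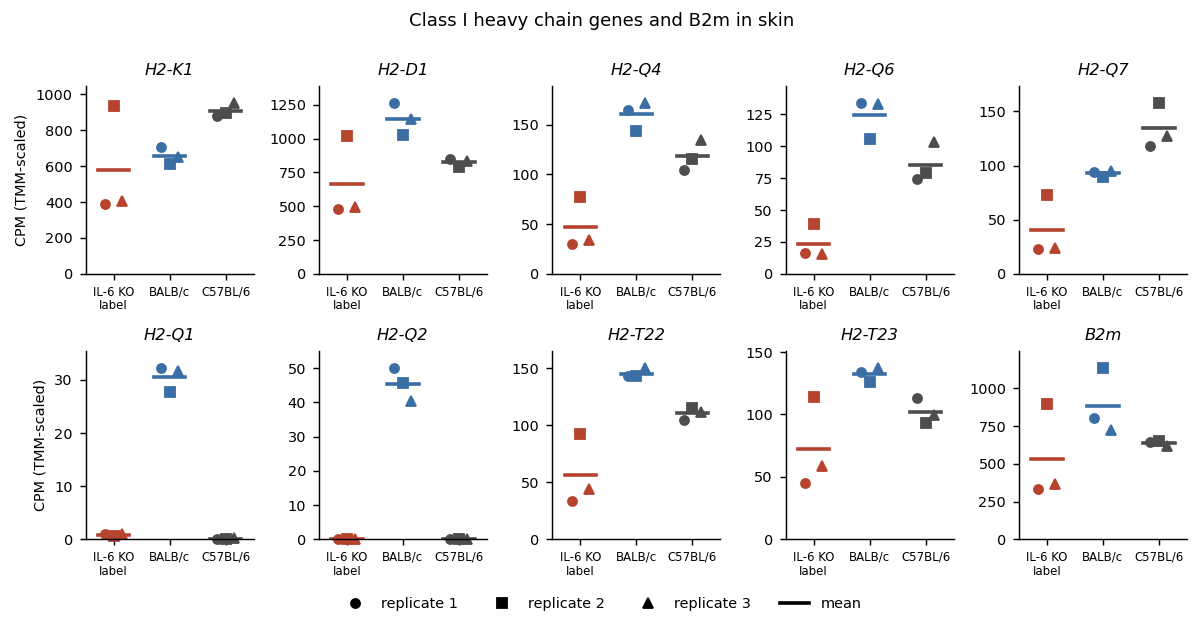
CPM (y axis, TMM-scaled, starting at 0) of 9 class I heavy chain genes and of B2m in the 3 groups (x axis), with symbols for replicates and bars for means. H2-Q2 has reads in the 3 BALB/c libraries and at most 1 read elsewhere, and replicate 2 of the KO-labelled libraries lies above replicates 1 and 3 in H2-K1, H2-D1, H2-Q4, H2-Q6, H2-Q7, H2-T22, H2-T23 and B2m.

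The Q region holds nonclassical class I genes, of which H2-Q7 and its close copies encode the Qa-2 molecule. H2-Q1 (chromosome 17, 35320405 to 35325099) had 4, 3 and 5 reads in the KO-labelled libraries, 202, 167 and 195 reads in BALB/c, and 1, 0 and 1 reads in C57BL/6. BALB/c stood far above both other groups, at 284 times the C57BL/6 rate with a 95% counting interval of 78.3 to 2351 (adjusted p = 9.11e-06). The KO-labelled libraries were called higher than C57BL/6 on 12 against 2 reads, a ratio of 8.32 with a counting interval of 1.85 to 76.6 (adjusted p = 0.00689), and lower than BALB/c at a ratio of 0.0293 with an interval of 0.0151 to 0.0516. Of the BALB/c reads of H2-Q1 86.2% were unique.

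H2-Q2 (chromosome 17, 35342242 to 35346762) had 0, 0 and 0 reads in the KO-labelled libraries, 314, 275 and 250 reads in BALB/c, and 0, 0 and 1 read in C57BL/6. The BALB/c rate was 845 times that of C57BL/6 with a counting interval of 151 to 33421 (adjusted p = 6.03e-05), and the KO-labelled libraries were at least 203-fold lower than BALB/c, counted against a floor of 3 reads over the group. In the BALB/c libraries 81.6% of these reads were unique. These intervals and floors hold counting error alone.

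Among the Q genes read in all groups, H2-Q4, whose product is known as Qb-1, had 30.1, 77.2 and 34.2 CPM in the KO-labelled libraries, 165, 144 and 172 CPM in BALB/c, and 104, 116 and 135 CPM in C57BL/6. H2-Q6 had 16.7, 38.7 and 15.5 CPM in the KO-labelled libraries, 134, 106 and 133 CPM in BALB/c, and 74.6, 78.9 and 103 CPM in C57BL/6. Both genes fell in the KO-labelled libraries with all 3 libraries below every library of the other groups. The log2 fold change of H2-Q4 was -1.32 ± 0.313 against C57BL/6 (adjusted p = 0.0104), with -1.76 ± 0.316 against BALB/c (adjusted p = 0.00287). For H2-Q6 it was -1.85 ± 0.322 against C57BL/6 (adjusted p = 0.00258), with -2.39 ± 0.325 against BALB/c (adjusted p = 0.000855). Between the strains both were higher in BALB/c without overlap and missed the threshold, at 0.44 ± 0.303 (adjusted p = 0.464) for H2-Q4 and 0.54 ± 0.302 (adjusted p = 0.364) for H2-Q6.

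H2-Q7 (chromosome 17, 35439155 to 35443773) ran the other way between the strains, at 23.3, 72.9 and 24.2 CPM in the KO-labelled libraries, 93.8, 89.6 and 95 CPM in BALB/c, and 118, 158 and 127 CPM in C57BL/6. It fell in the KO-labelled libraries, at -1.73 ± 0.385 against C57BL/6 (adjusted p = 0.00784) and at -1.20 ± 0.382 against BALB/c (adjusted p = 0.034). The call against BALB/c ended with scaling by library size alone, in a fit of only those groups, and without each of replicates 1 and 3 of the KO-labelled libraries and each BALB/c replicate. Without replicate 2 of the KO-labelled libraries the values were -2.50 ± 0.161 against C57BL/6 and -1.97 ± 0.159 against BALB/c. BALB/c against C57BL/6 gave -0.53 ± 0.370 (adjusted p = 0.469), and -0.53 ± 0.125 (adjusted p = 0.042) without replicate 2 of the KO-labelled libraries, which are not in this contrast but share its estimate of the spread. Leaving out other libraries raised the adjusted p between the strains to as much as 0.678. The RPKM of H2-Q6 divided by that of H2-Q7 was 1.46, 1.09 and 1.31 in the KO-labelled libraries, 2.91, 2.43 and 2.87 in BALB/c, compared with 1.3, 1.02 and 1.67 in C57BL/6, so BALB/c lay above the other groups, which overlapped.

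H2-Q5, annotated as a polymorphic pseudogene, had 2.64, 5.9 and 2.34 CPM in the KO-labelled libraries, 29.5, 27.3 and 30.2 CPM in BALB/c, and 8.3, 9.4 and 9.47 CPM in C57BL/6. Its 3 groups did not overlap and it was called in each comparison, at 1.68 ± 0.264 for BALB/c against C57BL/6 (adjusted p = 0.00995), -1.29 ± 0.305 for the KO-labelled libraries against C57BL/6 (adjusted p = 0.0103), with -2.97 ± 0.297 against BALB/c (adjusted p = 0.000291). The strain call reached an adjusted p of 0.0553 in the weaker of the settings that ended it, leaving out C57BL/6 replicate 1 or BALB/c replicate 3. H2-Q10, whose product is known as a secreted class I molecule of the liver, had 1.85, 8.96 and 1.27 CPM in the KO-labelled libraries, 18.8, 18.8 and 18.2 CPM in BALB/c, and 3.84, 6.26 and 13.4 CPM in C57BL/6. It was lower in the KO-labelled libraries than in BALB/c, at -2.16 ± 0.635 (adjusted p = 0.0251), a call that was lost with unique reads (adjusted p = 0.0944) and without replicate 1 or 3 of the KO-labelled libraries or replicate 2 or 3 of BALB/c. Without replicate 2 of the KO-labelled libraries it was -3.58 ± 0.565 against BALB/c (adjusted p = 0.00123), and H2-Q10 was then also lower against C57BL/6, at -2.31 ± 0.591 (adjusted p = 0.0123). Leaving out other libraries raised its adjusted p against C57BL/6 to as much as 0.767.

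The T region genes encode further nonclassical molecules. H2-T23 encodes Qa-1, the mouse ligand of the CD94 and NKG2A receptor of natural killer cells, and had 45, 114 and 58.4 CPM in the KO-labelled libraries, 134, 126 and 137 CPM in BALB/c, and 113, 93.2 and 99.2 CPM in C57BL/6. H2-T22, known as a ligand of some gamma-delta T cell receptors together with H2-T10, had 33.8, 92.2 and 43.9 CPM in the KO-labelled libraries, 143, 143 and 150 CPM in BALB/c, and 105, 115 and 112 CPM in C57BL/6. All KO-labelled libraries lay below both other groups for H2-T22 and below BALB/c for H2-T23. H2-T22 fell, at -0.96 ± 0.303 against C57BL/6 (adjusted p = 0.0345) and at -1.35 ± 0.304 against BALB/c (adjusted p = 0.00808). H2-T23 gave -0.49 ± 0.285 against C57BL/6 (adjusted p = 0.205) and fell, at -0.87 ± 0.286 against BALB/c (adjusted p = 0.039), which with unique reads became 0.0525. The calls of H2-T22 against C57BL/6 and of H2-T23 against BALB/c were also lost under scaling by library size alone, in fits of only the compared groups, and without replicate 1 or 3 of the KO-labelled libraries, or without any 1 of the 3 C57BL/6 libraries or BALB/c replicate 2 or 3, with adjusted p up to 0.127 and 0.139. That of H2-T23 ended without BALB/c replicate 1 too. Without replicate 2 of the KO-labelled libraries H2-T23 was also lower against C57BL/6, at -0.98 ± 0.152 (adjusted p = 0.00116). Other fits without 1 library took that adjusted p up to 0.513.

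H2-T10 had 2.12, 7.94 and 1.7 CPM in the KO-labelled libraries, 19.9, 21 and 20.4 CPM in BALB/c, and 6.46, 7.16 and 9.1 CPM in C57BL/6. It fell in the KO-labelled libraries against BALB/c, at -2.34 ± 0.455 (adjusted p = 0.0042), while BALB/c against C57BL/6 gave 1.43 ± 0.417 (adjusted p = 0.107) without overlap. Without replicate 2 of the KO-labelled libraries H2-T10 was called in each comparison, at -3.42 ± 0.257 for the KO-labelled libraries against BALB/c (adjusted p = 2.8e-05), -1.99 ± 0.268 against C57BL/6 (adjusted p = 0.000582), and 1.44 ± 0.174 for BALB/c against C57BL/6 (adjusted p = 0.00263). Other fits without 1 library raised the adjusted p to as much as 0.405 against C57BL/6 and 0.263 between the strains. H2-T24 had 3.7, 5.7 and 5.94 CPM in the KO-labelled libraries, 11.9, 21.5 and 11.2 CPM in BALB/c, and 5.84, 2.83 and 5.2 CPM in C57BL/6. BALB/c was above both other groups, by 1.68 ± 0.357 against C57BL/6 (adjusted p = 0.0384), and the KO-labelled libraries were lower than BALB/c, at -1.52 ± 0.362 (adjusted p = 0.0103). With unique reads these log2 fold changes were 2.88 (adjusted p = 0.0205) for BALB/c against C57BL/6 and -2.35 (adjusted p = 0.00752) for the KO-labelled libraries against BALB/c. The strain call of H2-T24 was lost without any 1 of the 6 libraries compared or replicate 3 of the KO-labelled libraries, with adjusted p up to 0.127. The pseudogene H2-T-ps had 0.793, 2.04 and 1.27 CPM in the KO-labelled libraries, 10.2, 7.65 and 8.43 CPM in BALB/c, and 2.61, 1.64 and 2.23 CPM in C57BL/6. BALB/c exceeded C57BL/6 by 2.01 ± 0.321 (adjusted p = 0.0106, and 0.0525 in the weaker fit without C57BL/6 replicate 3 or BALB/c replicate 3), and the KO-labelled libraries were lower than BALB/c, at -2.63 ± 0.353 (adjusted p = 0.000801).

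In the M region, H2-M2 had 0.793, 1.63 and 0.212 CPM in the KO-labelled libraries, 7.16, 12.6 and 9.41 CPM in BALB/c, and 5.07, 7.75 and 3.71 CPM in C57BL/6. It fell in the KO-labelled libraries, at -2.61 ± 0.549 against C57BL/6 (adjusted p = 0.00609) and at -3.42 ± 0.536 against BALB/c (adjusted p = 0.00153), without overlap, and without replicate 2 at -3.49 ± 0.638 and -4.30 ± 0.612 in the same order. H2-M5 had 0.264, 5.5 and 0.425 CPM in the KO-labelled libraries, 9.07, 14.3 and 14.3 CPM in BALB/c, and 7.99, 10.3 and 7.8 CPM in C57BL/6. Its fall against BALB/c was -2.52 ± 0.700 (adjusted p = 0.0199, up to 0.0637 in the fits that ended it, among them those without replicate 3 of the KO-labelled libraries and without BALB/c replicate 2 or 3), and -5.07 ± 0.461 (adjusted p = 7.42e-05) without replicate 2 of the KO-labelled libraries. Against C57BL/6 it gave -2.0 ± 0.707 (adjusted p = 0.0527, and 0.0488 with unique reads), and -4.55 ± 0.475 (adjusted p = 0.000169) without replicate 2. Leaving out other libraries raised that adjusted p to as much as 0.149. H2-M3, which presents N-formylated peptides of bacteria, was called in no comparison, and without replicate 2 of the KO-labelled libraries it was lower in them against BALB/c, at -1.29 ± 0.326 (adjusted p = 0.0114). Other fits without 1 library took the adjusted p of H2-M3 against BALB/c up to 0.505. H2-K2, a class I pseudogene beside H2-K1, had 1.06, 1.43 and 0.849 CPM in the KO-labelled libraries, 17.4, 17.5 and 14.9 CPM in BALB/c, and 3.07, 3.58 and 2.79 CPM in C57BL/6. Its groups did not overlap, with 2.38 ± 0.225 for BALB/c against C57BL/6 (adjusted p = 0.000626), -1.48 ± 0.291 for the KO-labelled libraries against C57BL/6 (adjusted p = 0.00451), with -3.87 ± 0.268 against BALB/c (adjusted p = 5.75e-05).

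H2-Ke6 carries the H2- prefix by its place in the complex and encodes a 17-beta-hydroxysteroid dehydrogenase, not an MHC molecule. It had 19.6, 20.2 and 18.9 CPM in the KO-labelled libraries, 48.9, 37.4 and 38.1 CPM in BALB/c, and 30.9, 38.5 and 44.2 CPM in C57BL/6. All 3 KO-labelled libraries, replicate 2 included, lay near 20 CPM and below every other library. It fell, at -0.95 ± 0.171 against C57BL/6 (adjusted p = 0.00298) and at -1.08 ± 0.171 against BALB/c (adjusted p = 0.00157). Between 54.9% and 59.5% of its reads per group were unique, and it overlaps the transcript Gm20427 on the same strand.

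Upstream sequences were read for the genes that RefSeq places (GRCm38.p6, 37 of 54 members in the table), as the 200 bases before the RefSeq start. The gene annotation used for counting can differ. By it the stretch of H2-D1 lies inside the gene, and those of H2-Q2, H2-DMb1 and H2-Aa run into theirs. A further RefSeq start of H2-K1, whose stretch also held the kappaB-like motif and Y box marked below, is not shown. The reference is the C57BL/6J allele, so BALB/c sequence was not read. These stretches compare the classical genes H2-K1 and H2-D1 with H2-Q6, which fell in the KO-labelled libraries, and with H2-Q2, which was read in BALB/c. Capitals mark a kappaB-like motif (GGGATTCCC) and the Y box (CCAAT, or ATTGG on the other strand).
H2-K1 (chr17:34000348-34000547, minus strand): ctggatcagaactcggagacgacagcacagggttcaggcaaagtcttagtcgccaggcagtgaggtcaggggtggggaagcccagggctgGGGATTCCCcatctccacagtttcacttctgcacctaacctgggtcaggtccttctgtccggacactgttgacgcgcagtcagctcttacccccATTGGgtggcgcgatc
H2-D1 (chr17:35262894-35263093, plus strand): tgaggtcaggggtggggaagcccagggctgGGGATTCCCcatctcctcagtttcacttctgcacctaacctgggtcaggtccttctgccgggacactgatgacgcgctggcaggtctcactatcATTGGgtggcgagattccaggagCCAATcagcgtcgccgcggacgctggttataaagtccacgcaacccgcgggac
H2-Q6 (chr17:35424650-35424849, plus strand): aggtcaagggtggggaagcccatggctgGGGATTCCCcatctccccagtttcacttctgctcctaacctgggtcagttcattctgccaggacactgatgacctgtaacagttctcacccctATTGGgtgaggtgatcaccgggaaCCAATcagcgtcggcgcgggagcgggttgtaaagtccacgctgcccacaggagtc
H2-Q2 (chr17:35342107-35342306, plus strand): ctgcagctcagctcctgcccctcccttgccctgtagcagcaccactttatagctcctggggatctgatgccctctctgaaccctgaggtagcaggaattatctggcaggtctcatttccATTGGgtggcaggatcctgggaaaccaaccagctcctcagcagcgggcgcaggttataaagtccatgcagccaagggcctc
The kappaB-like motif, searched on both strands, was present in 4 members, H2-K1, H2-D1, H2-Q6 and H2-Q7, and in 0.213% of all 32851 stretches. The Y box was present in 20 of 23 class I heavy chain genes in the table and in 29.3% of all stretches. An interferon response element-like motif (GAAANNGAA), which 5.57% of all stretches held, was found upstream of B2m, H2-T22 and H2-T23, and a GAS-like motif (TTCNNNGAA), held by 5.49%, upstream of Psmb8. Of the 4 genes with the kappaB-like letters, H2-Q6 and H2-Q7 were lower in the KO-labelled libraries, while H2-K1 and H2-D1 were called in no comparison. The kappaB-like and interferon letters were shortened after matches had been seen: a longer kappaB-like form, held by 0.0274% of all stretches, matched H2-K1, H2-D1 and H2-Q6 but not H2-Q7, and a longer interferon form, held by 2.27%, matched the same 3 genes as the one given. A match describes letters in the window and is no evidence of binding.

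Tap1 and Tap2 encode the subunits of the peptide transporter, and Tapbp encodes tapasin, which joins it to the class I heavy chain. Tap1 had 41.8, 73.7 and 39.5 CPM in the KO-labelled libraries, 91.4, 92.3 and 104 CPM in BALB/c, and 80.6, 84.4 and 91 CPM in C57BL/6. Tap2 had 28, 51.9 and 31.8 CPM in the KO-labelled libraries, 57.9, 52.9 and 55.3 CPM in BALB/c, and 63.3, 55.5 and 61.5 CPM in C57BL/6. Tapbp had 74, 124 and 81.7 CPM in the KO-labelled libraries, 125, 137 and 140 CPM in BALB/c, and 160, 139 and 155 CPM in C57BL/6. In all 3 genes every KO-labelled library lay below every library of the other groups, with replicate 2 nearest to them. All 3 fell against C57BL/6, Tap1 at -0.72 ± 0.219 (adjusted p = 0.03), Tap2 at -0.68 ± 0.206 (adjusted p = 0.0289) and Tapbp at -0.69 ± 0.187 (adjusted p = 0.0185). Against BALB/c Tap1 fell, at -0.89 ± 0.219 (adjusted p = 0.0121), while Tap2 at -0.57 ± 0.206 (adjusted p = 0.0555) and Tapbp at -0.52 ± 0.187 (adjusted p = 0.0533) missed the threshold. The calls against C57BL/6 did not survive scaling by library size alone (adjusted p up to 0.112 for Tap1, 0.11 for Tap2 and 0.0805 for Tapbp over all alternatives) or the loss of replicate 1 or 3 of either group. Those of Tap1 and Tap2 also ended in a fit of only the compared groups, and that of Tap1 without C57BL/6 replicate 2. The call of Tap1 against BALB/c was lost without replicate 3 of the KO-labelled libraries. Without replicate 2 Tap2 and Tapbp were lower against BALB/c too, at -0.89 ± 0.123 (adjusted p = 0.00063) and -0.78 ± 0.127 (adjusted p = 0.00142). Other fits without 1 library took these adjusted p up to 0.183 and 0.181. BALB/c and C57BL/6 differed by between -0.17 and 0.17 on the log2 scale in these genes, with adjusted p of 0.655 or more.

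Psmb8 and Psmb9 encode catalytic subunits of the immunoproteasome, which replace Psmb5 and Psmb6 of the constitutive proteasome. Psmb8 had 13.5, 32.6 and 15.7 CPM in the KO-labelled libraries, 43.6, 39.4 and 51.4 CPM in BALB/c, and 34.7, 33 and 39.2 CPM in C57BL/6. Psmb9 had 7.67, 17.3 and 11 CPM in the KO-labelled libraries, 32, 30.8 and 31.6 CPM in BALB/c, and 22, 18 and 22.8 CPM in C57BL/6. The 3 groups did not overlap in either gene, with BALB/c highest and the KO-labelled libraries lowest. Psmb8 fell against BALB/c, at -1.11 ± 0.289 (adjusted p = 0.0152, up to 0.0641, with the call lost in a fit of only these groups and without replicate 3 of either), and gave -0.78 ± 0.289 (adjusted p = 0.0624) against C57BL/6, or -1.28 ± 0.169 (adjusted p = 0.000513) without replicate 2 of the KO-labelled libraries. Other fits without 1 library took the adjusted p of Psmb8 against C57BL/6 up to 0.199. Psmb9 fell against BALB/c, at -1.37 ± 0.251 (adjusted p = 0.00311) and against C57BL/6, at -0.79 ± 0.252 (adjusted p = 0.0362). The call of Psmb9 against C57BL/6 ended with scaling by library size alone, in a fit of only these groups, and without replicate 1 or 3 of either group or BALB/c replicate 2 or 3, with adjusted p up to 0.118. BALB/c against C57BL/6 gave 0.33 ± 0.278 (adjusted p = 0.554) for Psmb8 and 0.59 ± 0.238 (adjusted p = 0.219) for Psmb9. Psmb9 and Tap1 overlap at their starts on opposite strands.

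The ratio of Psmb8 to Psmb5 in RPKM was 0.0351, 0.12 and 0.0415 in the KO-labelled libraries, 0.292, 0.236 and 0.339 in BALB/c, compared with 0.147, 0.136 and 0.136 in C57BL/6. Psmb9 over Psmb6 was 0.032, 0.0882 and 0.0509 in the KO-labelled libraries, 0.162, 0.145 and 0.145 in BALB/c, compared with 0.124, 0.0984 and 0.101 in C57BL/6. In both ratios the 3 groups did not overlap and stood in the order of the immunoproteasome genes themselves. Psmb5 had 122, 86.5 and 120 CPM in the KO-labelled libraries, 47.6, 53.2 and 48.3 CPM in BALB/c, and 75.2, 77 and 91.9 CPM in C57BL/6. It was lower in BALB/c than in C57BL/6, at -0.71 ± 0.157 (adjusted p = 0.0444) and higher in the KO-labelled libraries than in BALB/c by 1.14 ± 0.158 (adjusted p = 0.000916). Against C57BL/6 the KO-labelled libraries overlapped with it and gave 0.43 ± 0.156 (adjusted p = 0.0566). The third pair, Psmb10 over Psmb7, was 0.296, 0.403 and 0.247 in the KO-labelled libraries, 0.452, 0.331 and 0.389 in BALB/c, compared with 0.444, 0.318 and 0.367 in C57BL/6, and the groups overlapped.

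**Figure D4:**
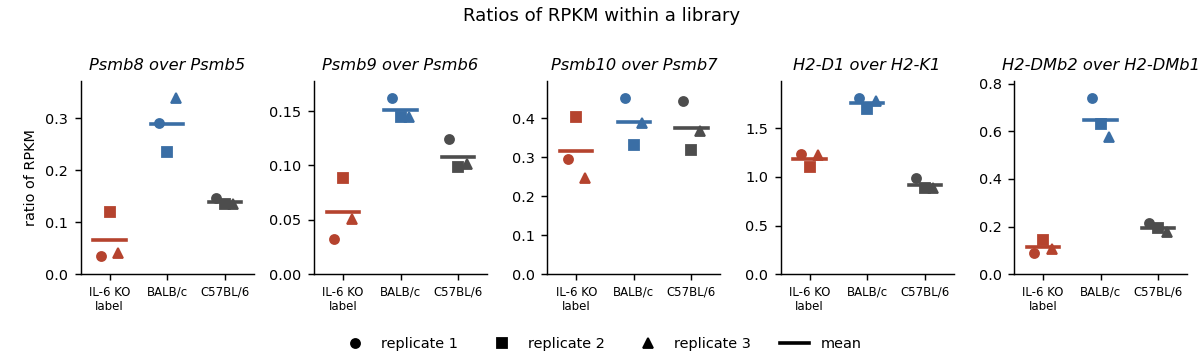
Ratio of RPKM of the named gene pairs within each library (y axis, starting at 0) in the 3 groups (x axis), with symbols for replicates and bars for means. The groups do not overlap in Psmb8 over Psmb5, Psmb9 over Psmb6, H2-D1 over H2-K1 and H2-DMb2 over H2-DMb1, and overlap in Psmb10 over Psmb7.

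Nlrc5, the transactivator of class I genes, and Ciita, that of class II genes, were called in no comparison. Nlrc5 (chromosome 8, 94434356 to 94527272) had 29.1, 85.5 and 30.6 CPM in the KO-labelled libraries, 87.4, 84 and 91.5 CPM in BALB/c, and 78.2, 95.4 and 76.5 CPM in C57BL/6. Ciita (chromosome 16, 10488178 to 10527564) had 2.91, 8.35 and 2.55 CPM in the KO-labelled libraries, 6.85, 10.1 and 10.9 CPM in BALB/c, and 10.8, 6.86 and 9.28 CPM in C57BL/6. In both genes replicates 1 and 3 of the KO-labelled libraries were the lowest of all 9, and replicate 2 lay within the range of the other groups. Nlrc5 gave -0.78 ± 0.357 against C57BL/6 (adjusted p = 0.118), with -0.85 ± 0.357 against BALB/c (adjusted p = 0.0884). Ciita gave -0.94 ± 0.432 (adjusted p = 0.119) and -0.99 ± 0.431 (adjusted p = 0.0981). Without replicate 2 Nlrc5 was lower, at -1.48 ± 0.140 against C57BL/6 (adjusted p = 0.000101) and at -1.55 ± 0.140 against BALB/c (adjusted p = 7.17e-05), and Ciita at -1.72 ± 0.340 (adjusted p = 0.00375) and -1.77 ± 0.339 (adjusted p = 0.00322). Other fits without 1 library weakened these contrasts, with adjusted p up to 0.325 for Nlrc5 and 0.326 for Ciita against C57BL/6. Against BALB/c the adjusted p reached 0.261 and 0.283. Between the strains the log2 fold changes were 0.07 for Nlrc5 and 0.05 for Ciita, with adjusted p of 0.937 and 0.961.

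The class II chains H2-Aa and H2-Ab1 form the I-A molecule, and H2-Eb1 is the beta chain of I-E. H2-Aa had 122, 259 and 143 CPM in the KO-labelled libraries, 206, 284 and 340 CPM in BALB/c, and 290, 202 and 275 CPM in C57BL/6. H2-Ab1 had 99.4, 223 and 124 CPM in the KO-labelled libraries, 177, 286 and 307 CPM in BALB/c, and 291, 198 and 272 CPM in C57BL/6. H2-Eb1 had 73.8, 189 and 104 CPM in the KO-labelled libraries, 144, 228 and 250 CPM in BALB/c, and 258, 171 and 221 CPM in C57BL/6. In all 3 genes replicates 1 and 3 of the KO-labelled libraries were the lowest of the 9 libraries, and the strains overlapped. None was called in any comparison. BALB/c against C57BL/6 gave log2 fold changes from -0.06 to 0.11 with adjusted p of 0.876 or more. The KO-labelled libraries gave -0.55 to -0.82 against C57BL/6 (adjusted p from 0.088 to 0.18, and up to 0.445 in fits without 1 library). Against BALB/c the KO-labelled libraries gave -0.66 to -0.79 (adjusted p from 0.0799 to 0.109, and up to 0.3 in such fits). Without replicate 2 all 3 were lower in them against C57BL/6, from -0.95 ± 0.243 for H2-Aa (adjusted p = 0.0123) to -1.29 ± 0.283 for H2-Eb1 (adjusted p = 0.00629), and against BALB/c, from -1.06 ± 0.244 for H2-Aa (adjusted p = 0.00736) to -1.22 ± 0.283 for H2-Eb1 (adjusted p = 0.00762).

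H2-Ea-ps (chromosome 17, 34342933 to 34344643, minus strand), the alpha chain gene of I-E, is annotated as a pseudogene in the C57BL/6J reference. It had 0, 0 and 0 reads in the KO-labelled libraries, 325, 469 and 548 reads in BALB/c, and 0, 0 and 0 reads in C57BL/6. The floor put BALB/c at least 451-fold above C57BL/6 (adjusted p = 0.000831) and the KO-labelled libraries at least 325-fold lower than BALB/c (adjusted p = 0.000339), with a floor of 3 reads over the group at 0. In BALB/c its RPKM was 0.686, 0.75 and 0.714 of that of H2-Aa in the same library. The KO-labelled libraries thus had the C57BL/6 pattern in H2-Ea-ps and H2-Q2, as their strain label has it, and a few reads of H2-Q1.

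**Figure D5:**
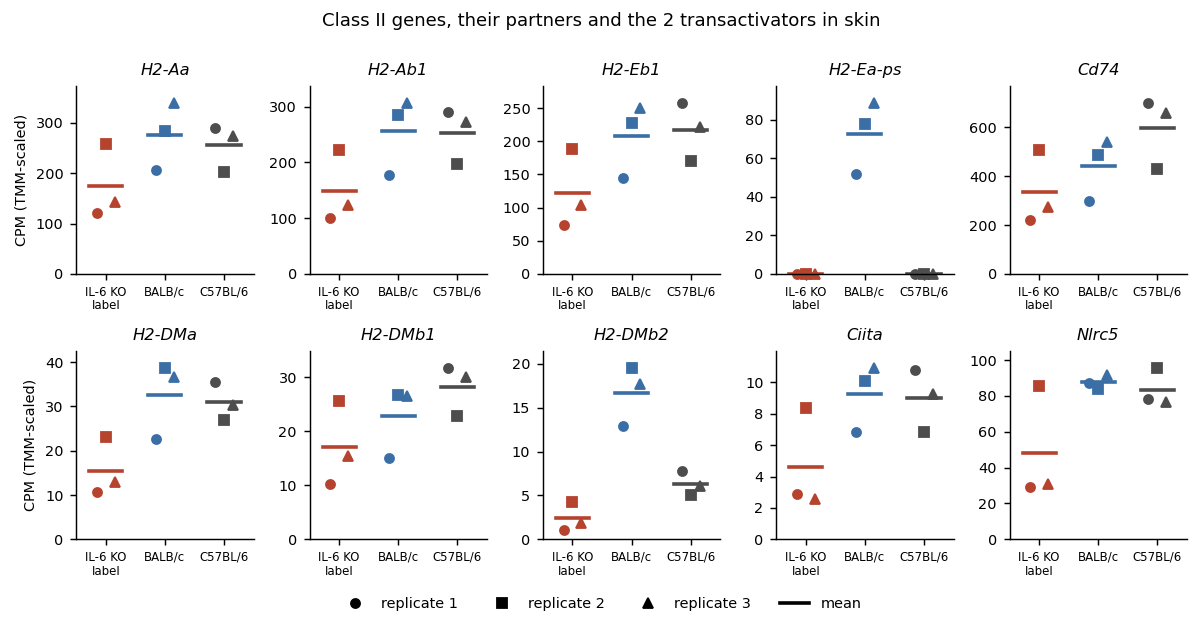
CPM (y axis, TMM-scaled, starting at 0) of class II genes, Cd74, the H2-DM genes and the transactivators Ciita and Nlrc5 in the 3 groups (x axis), with symbols for replicates and bars for means. H2-Ea-ps has reads in BALB/c alone, H2-DMb2 is highest in the 3 BALB/c libraries, and in each panel other than H2-Ea-ps replicate 2 is the highest of the KO-labelled libraries.

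Class II promoters are known for an X box and a Y box to which the RFX and NF-Y complexes bind. The 200 bases upstream of H2-Eb1, H2-DMb1 and H2-Aa in RefSeq (GRCm38.p6) are shown to set class II genes with and without X-box-like letters side by side. Capitals mark an X-box-like motif (AACNGATG) and the Y box.
H2-Eb1 (chr17:34305667-34305866, plus strand): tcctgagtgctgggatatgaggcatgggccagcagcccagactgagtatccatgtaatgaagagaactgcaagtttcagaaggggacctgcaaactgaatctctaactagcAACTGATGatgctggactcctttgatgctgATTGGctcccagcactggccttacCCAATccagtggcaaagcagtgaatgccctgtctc
H2-DMb1 (chr17:34152991-34153190, plus strand): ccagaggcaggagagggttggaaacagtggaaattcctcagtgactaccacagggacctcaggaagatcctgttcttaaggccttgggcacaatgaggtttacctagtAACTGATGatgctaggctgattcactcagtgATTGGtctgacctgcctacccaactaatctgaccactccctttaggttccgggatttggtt
H2-Aa (chr17:34287824-34288023, minus strand): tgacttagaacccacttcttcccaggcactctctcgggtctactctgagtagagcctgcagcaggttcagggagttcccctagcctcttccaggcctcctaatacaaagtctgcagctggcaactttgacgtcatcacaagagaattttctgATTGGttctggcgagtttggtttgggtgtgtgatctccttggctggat
The X-box-like motif was found in 4 of 8 class II genes in the table, namely H2-DMb1, H2-DMb2, H2-Eb1 and H2-Eb2, in 1 of 23 class I genes, H2-M10.4, and in 1.55% of all stretches. The Y box was found in 8 of 8 class II genes. In H2-Aa no letters matching the X-box-like motif were found in this window. These X-box-like letters are the last of 3 forms tried, chosen after the matches of the others had been seen, and which class II genes match depends on the form. A longer first form, held by 0.575% of all stretches, matched H2-DMb1, H2-Eb1, H2-Eb2 and H2-Oa, so H2-Oa in place of H2-DMb2, and no class I gene. A second form, held by 11.6%, matched the same class II genes as the first, with H2-M3 and H2-M11 of class I.

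Cd74, the invariant chain, had 222, 505 and 273 CPM in the KO-labelled libraries, 298, 488 and 540 CPM in BALB/c, and 700, 430 and 657 CPM in C57BL/6. No comparison was called, with adjusted p of 0.0869 for the KO-labelled libraries against C57BL/6, 0.377 against BALB/c and 0.531 between the strains. For the KO-labelled libraries the adjusted p reached 0.248 against C57BL/6 and 0.733 against BALB/c in fits without 1 library. Without replicate 2 of the KO-labelled libraries Cd74 was lower in them, at -1.27 ± 0.304 against C57BL/6 (adjusted p = 0.00928) and at -0.84 ± 0.299 against BALB/c (adjusted p = 0.046). The RPKM of Cd74 divided by that of H2-Ab1 was 2.6, 2.63 and 2.56 in the KO-labelled libraries, 1.95, 1.98 and 2.04 in BALB/c, compared with 2.8, 2.53 and 2.8 in C57BL/6. Within a library this ratio thus set BALB/c below both other groups, although Cd74 itself overlapped between all groups.

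H2-DMa and the beta chain genes H2-DMb1 and H2-DMb2 encode the H2-DM peptide exchange factor. H2-DMa had 10.6, 23 and 12.9 CPM in the KO-labelled libraries, 22.6, 38.6 and 36.7 CPM in BALB/c, and 35.4, 27 and 30.3 CPM in C57BL/6. It fell in the KO-labelled libraries, at -0.98 ± 0.301 against C57BL/6 (adjusted p = 0.0309) and at -1.06 ± 0.301 against BALB/c (adjusted p = 0.0219), with overlap in the second comparison. Both calls were lost without replicate 1 or 3 of the KO-labelled libraries, that against C57BL/6 also with scaling by library size alone and without C57BL/6 replicate 1 or 3, and that against BALB/c in a fit of only these groups and without BALB/c replicate 2 or 3, with adjusted p up to 0.112 and 0.0857. H2-DMb1 had 10.3, 25.7 and 15.5 CPM in the KO-labelled libraries, 15.1, 26.8 and 26.6 CPM in BALB/c, and 31.7, 22.8 and 30.1 CPM in C57BL/6. The groups overlapped and no comparison was called. Without replicate 2 of the KO-labelled libraries H2-DMb1 was lower in them against C57BL/6, at -1.11 ± 0.303 (adjusted p = 0.0162), and gave -0.81 ± 0.304 against BALB/c (adjusted p = 0.0543). Leaving out other libraries raised these adjusted p to as much as 0.326 and 0.758.

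H2-DMb2 had 1.06, 4.28 and 1.91 CPM in the KO-labelled libraries, 12.9, 19.5 and 17.7 CPM in BALB/c, and 7.84, 5.07 and 6.13 CPM in C57BL/6. The 3 groups did not overlap. It fell in the KO-labelled libraries, at -2.74 ± 0.408 against BALB/c (adjusted p = 0.00124) and at -1.35 ± 0.421 against C57BL/6 (adjusted p = 0.0331, up to 0.117, the call being lost with library size alone and without replicate 1 or 3 of either group, among others). BALB/c against C57BL/6 gave 1.39 ± 0.360 (adjusted p = 0.0741), and 0.0157 without replicate 2 of the KO-labelled libraries, a fit in which they gave -3.44 ± 0.371 against BALB/c and -2.05 ± 0.389 against C57BL/6. Leaving out other libraries raised the adjusted p between the strains to as much as 0.213. The RPKM of H2-DMb2 divided by that of H2-DMb1 was 0.0891, 0.145 and 0.107 in the KO-labelled libraries, 0.74, 0.631 and 0.577 in BALB/c, compared with 0.215, 0.193 and 0.177 in C57BL/6, again without overlap. The remaining accessory gene tested, H2-Ob, a chain of the H2-DM inhibitor H2-DO, lay between 0 and 2.46 CPM and was called in no comparison.

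Replicate 2 of the KO-labelled libraries was the highest of its group in 32 of 36 tested members, or 88.9%, beside 38.3% of all genes tested. Summed over all members it held 4938 CPM, against 2123 and 2370 CPM in replicates 1 and 3, 5085, 5548 and 5552 CPM in BALB/c, and 5037, 4483 and 5040 CPM in C57BL/6. Marker sums of several cell types, immune and other, were also highest of the group in it. The 5 keratinocyte markers summed to 6497, 20437 and 8753 CPM in the KO-labelled libraries, the 4 fibroblast markers to 3204, 9400 and 6944 CPM, and the 7 T cell markers to 12.4, 29.7 and 11 CPM. The sum of replicate 2 was the highest of all 9 libraries for keratinocytes, and lay within the range of the other groups for fibroblasts and T cells. The 10 Langerhans and dendritic cell markers summed to 15.9, 56.8 and 27.8 CPM in the KO-labelled libraries, 59.1, 77.8 and 75.9 CPM in BALB/c, and 62.1, 56.2 and 49.4 CPM in C57BL/6. Of the 6 tested, 1 was lower in the KO-labelled libraries against BALB/c and 0 against C57BL/6. Among all genes tested, 17.4% and 16% were lower in the same order. Cd207, the langerin gene of Langerhans cells, had 0.793, 11.4 and 2.12 CPM in the KO-labelled libraries, 20.1, 25.3 and 29.7 CPM in BALB/c, and 12.5, 16.6 and 6.13 CPM in C57BL/6.

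The 5 leukocyte markers summed to 86.5, 269 and 145 CPM in the KO-labelled libraries, 132, 202 and 196 CPM in BALB/c, and 215, 127 and 167 CPM in C57BL/6. The 9 macrophage markers summed to 468, 1147 and 626 CPM in the KO-labelled libraries, 508, 842 and 766 CPM in BALB/c, and 980, 431 and 696 CPM in C57BL/6. For both lists replicate 2 held the highest sum of all 9 libraries, and replicate 1 was the lowest of its group. The 6 B cell markers summed to between 0.649 and 3.46 CPM and none was tested. The 3 endothelial markers summed to 94.9, 107 and 86.2 CPM in the KO-labelled libraries, 174, 104 and 72.2 CPM in BALB/c, and 200, 164 and 270 CPM in C57BL/6, and 2 of them were lower against C57BL/6, as was 1 of the 6 T cell markers tested. Among all genes tested, 16% were lower against C57BL/6, so 1 of the 6 T cell markers is close to that share. No marker list had a gene at 0 in all libraries. The 4 skeletal muscle markers were all lower in the KO-labelled libraries against each of the other groups. The part of these markers in the MHC differences was not tested.

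A list of 39 other genes of antigen processing, of which 37 were tested, was set beside the members. In the KO-labelled libraries 7 were higher and 1 lower against C57BL/6, in all 21.6%, against 35.2% of all genes tested, with a median log2 fold change of 0.05. Against BALB/c 8 were higher and 3 lower, in all 29.7%, against 37.3% of all genes, with a median of 0.02. Between BALB/c and C57BL/6 0 were higher and 1, Psmb5, was lower, with a median of 0.02. In that comparison 3.41% of all genes tested were called. Of the 6 genes of the list that act on proteins in endosomes, where class II peptides are made, Ctsl, Ctsb and Ctsd rose in the KO-labelled libraries against both other groups. Ctss (adjusted p of 0.231 against C57BL/6 and 0.209 against BALB/c), Lgmn (0.402 and 0.379) and Ifi30 (0.342 and 0.823, with log2 fold changes of -0.31 and -0.08) were not called. Ctsl, encoding cathepsin L, averaged 604 ± 78.7 CPM in the KO-labelled libraries, 368 ± 13.5 CPM in BALB/c and 303 ± 56.6 CPM in C57BL/6 (SD, n = 3 each), a rise of 0.99 ± 0.175 against C57BL/6 (adjusted p = 0.00273). Ctsb, encoding cathepsin B, averaged 1512 ± 101 CPM in the KO-labelled libraries, 866 ± 83.3 CPM in BALB/c and 817 ± 131 CPM in C57BL/6, a rise of 0.89 ± 0.181 against C57BL/6 (adjusted p = 0.00536).

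Among genes of the endoplasmic reticulum and the proteasome, Pdia3, whose product ERp57 is a partner of tapasin, rose by 0.63 ± 0.134 against C57BL/6 (adjusted p = 0.00624). Against BALB/c Psme3, a subunit of a nuclear proteasome activator, rose by 0.83 ± 0.173 (adjusted p = 0.00567) and Sec61a1, of the translocation channel, by 0.64 ± 0.136 (adjusted p = 0.00637), beside Psmb5. Irf2, an interferon regulatory factor, fell in the KO-labelled libraries, at -0.94 ± 0.144 against C57BL/6 (adjusted p = 0.00143). The genes that fell against BALB/c were the proteasome activator subunits Psme1 at -0.44 ± 0.147 (adjusted p = 0.0403) and Psme2 at -0.60 ± 0.164 (adjusted p = 0.0186), and the NF-Y subunit Nfyb at -0.40 ± 0.131 (adjusted p = 0.0365).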

How the data were processed

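RNA of shaved skin was sequenced in 9 libraries, 3 per group, made with TruSeq kits per the labels' protocols. The authors mapped reads to GRCm38, per the submitters' processing notes. Aligner and settings: not given in the sources used here. Deposited tables hold counts per gene (total, unique, gene and intron reads) and RPKM; the deposited RPKM follow from total exon reads and exon length. Total exon reads were analysed, with unique exon reads beside them. The table of C57BL/6 replicate 1 is the first of 3 stacked in its file. Unique reads made up 84.53% to 87.95% of exon reads.

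Counts were tested in R 4.3.3 with edgeR 4.0.16 (filterByExpr with a minimum count of 10 and a minimum total of 15, TMM, quasi-likelihood F test), fitting the 9 libraries jointly by group (6 residual degrees of freedom), with Benjamini-Hochberg adjustment over 14415 genes and a threshold of 0.05. The SE is the log2 fold change divided by the square root of F. The fit was also run on simulated data, whose result is not given here, so no conclusion is drawn from it. Ratios with few reads carry 95% counting intervals, and floors are 3 reads. Summaries used Python 3.11.15 and pandas 2.3.3. Alternatives were unique reads, other normalizations, no filter, DESeq2 1.42.0, a replicate block, fits of only the compared groups, and leaving out each library. Values per library are given for the main genes of each pathway and every other member called in a comparison, and outside the members for up to 3 genes per direction and comparison, by p-value. Motif letters were changed after matches had been seen. Members, lists and tests were chosen with earlier results of these data known.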

Additional observations from a re-analysis of the deposited data

How the results depend on the processing

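Calls are limited by 3 libraries per group, 6 residual degrees of freedom and the spread of the KO-labelled libraries. Over the fits that left out 1 library, members called numbered 8 to 30 (15 in the reported fit) for the KO-labelled libraries against C57BL/6, 15 to 34 (22) against BALB/c and 4 to 10 (7) for BALB/c against C57BL/6, and all genes called 3238 to 6806 (5068), 3310 to 7044 (5370) and 167 to 977 (491). The largest counts were those without replicate 2 of the KO-labelled libraries. Without BALB/c replicate 3, 4 members were called between the strains. Against C57BL/6 the members called in the KO-labelled libraries numbered 8 with library size alone and 9 in a fit of only these groups, in which H2-Q1 was filtered out. DESeq2 called 1033 genes between the strains. Same-numbered libraries did not deviate together (correlations -0.212 to 0.0617), and a replicate block gave 255 genes between the strains and ended the member calls of H2-T24 there and of Psmb9 for the KO-labelled libraries against C57BL/6. Called under every alternative in which they were tested were 8 of 15 members against C57BL/6 (H2-K2, H2-Ke6, H2-Q1, H2-Q4, H2-Q5, H2-Q6, H2-Q7 and H2-M2), 15 of 22 against BALB/c and 4 of 7 between the strains (H2-K2, H2-Ea-ps, H2-Q1 and H2-Q2). No called member changed sign. Log2 fold changes that did were of members not called. For BALB/c against C57BL/6, fits without 1 library ranged from -0.11 to 0.24 for Ciita, from -0.06 to 0.30 for H2-Aa, from -0.14 to 0.23 for H2-Ab1 (-0.05 with the replicate block), from -0.05 to 0.29 for H2-DMa and from -0.22 to 0.15 for H2-Eb1 (0.01 with library size alone). They ranged from -0.72 to 0.03 for H2-K1 in the KO-labelled libraries against BALB/c, and against C57BL/6 from -0.10 to 0.36 for H2-T24, from -0.67 to 0.28 for H2-M3 (0.13 with library size alone) and from -1.93 to 0.38 for H2-Ob, which between the strains ranged from -0.01 to 1.02. The causes were not tested.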
